A study of Mus musculus with 18 samples.

Results

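The 9 genes described here are transcription factors and RNA-binding proteins of the pluripotent epiblast: Pou5f1, Nanog, Utf1, Sall4, Lin28a, Lin28b, Zfp42, Klf4 and Pou3f1. They were taken by name, as a list, from the 24498 genes of the deposited table, and all 9 were among the 14711 genes that passed the filter on low values. The epiblast is the layer of the mouse embryo that forms every germ layer at gastrulation. Pou5f1 (OCT4) and Nanog hold its cells in the pluripotent state, Klf4 and Zfp42 (REX1) mark the earlier naive state of embryonic stem cells, and Pou3f1 (OCT6) marks the later, primed state. The LIN28 proteins block the maturation of let-7 microRNAs. As cells leave the epiblast for mesoderm and endoderm, genes of this kind are lost at different times.

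RNA came from cells of mouse embryos at embryonic day 7.5, and both alleles of Foxa2, a forkhead factor of endoderm, node and notochord, encoded a protein fused to the red fluorescent protein tagRFP. In FoxA2-ΔHx-tagRFP embryos (ΔHx) the fused protein lacked 10 amino acids of an α-helix that, per the series' text, target genes need for activation. In FoxA2-WT-tagRFP embryos (WT) it was otherwise intact, so the control also carried the knock-in, and heterozygous and untagged embryos served to set the sorting gates. Cells of about 10 pooled homozygous embryos were sorted by red fluorescence into High (brighter than heterozygous cells), Mid (above autofluorescence, up to the heterozygous maximum) and Neg (no signal), giving 6 groups of 3 biological replicates. The background was a C57Bl6/J and CD-1 mix. Both sexes were pooled, and extra-embryonic tissue had been dissected off before sorting. The labels do not say whether replicates came from different litters or days, so p-values measure only the spread between these samples.

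The 18 libraries held 12302196 to 17194136 reads in genes, and 1 read was worth 0.825 to 1.37 of the normalised read counts given below. Foxa2 followed the gates, at 1556 to 2483 in High, 547 to 1229 in Mid and 20.3 to 62.5 in Neg. Mesoderm RNA was high in Mid and Neg alike, with summed values of 12 nascent mesoderm genes of 9292 to 14051 in ΔHx Mid, 9403 to 13448 in WT Mid, 8015 to 10919 in ΔHx Neg and 8797 to 10744 in WT Neg. In High, the summed values of 9 node and notochord genes were 32760 to 34988 in ΔHx and 27407 to 41871 in WT, and in Mid those of 12 visceral endoderm genes were 52396 to 57277 in ΔHx and 46989 to 56887 in WT. Definitive endoderm RNA was high in High and Mid alike. The summed values of 10 such genes were 38341 to 40046 in ΔHx High and 41176 to 45085 in WT High. They were 28213 to 32941 in ΔHx Mid, 26993 to 34784 in WT Mid, 3140 to 3604 in ΔHx Neg and 3022 to 3227 in WT Neg. In none of these 6 sets of libraries did a gene of the list stay without a read. WT Mid replicate 1 stood apart: its summed value of 10 parietal endoderm genes was 235003, against 40269 and 63027 in the other WT Mid libraries. Values of Zfp42, Klf4, Socs3, Tfcp2l1 and the parietal endoderm list that use it are also given without it. In pooled RNA of sorted cells, fewer cells of a type and less RNA per cell cannot be told apart.

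Changes are differences of log2(value + 1), a scale on which scarce genes appear to change less than they do. They come with standard errors (SE) from limma fitted to all 14711 genes, and a fold is the power of 2 of such a change. A gene was called at a Benjamini-Hochberg adjusted p under 0.05 over all tested genes of a comparison. Every gene has 1 spread for all 6 groups, so the SE of a gene is the same in each comparison of 2 groups.

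**Figure D1:**
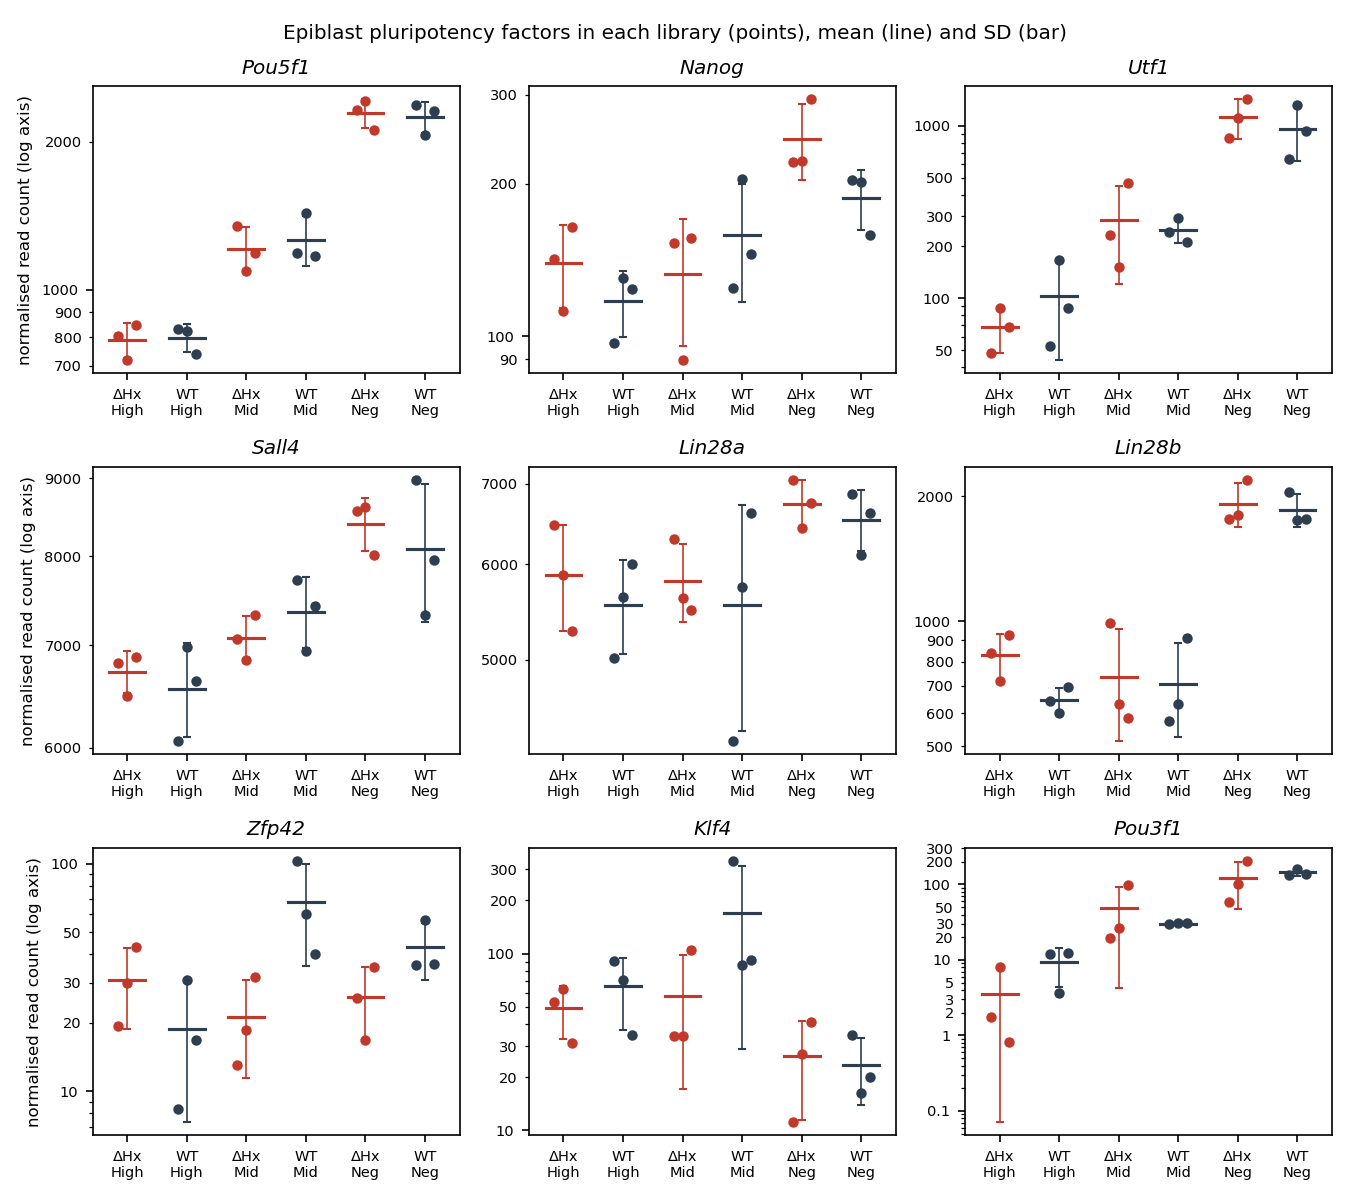
Normalised read count of each of the 9 genes (log axis, a different range in each panel) in the 18 libraries, with ΔHx in red and WT in dark blue; points are libraries, lines group means and bars the SD of 3 libraries. Pou5f1, Utf1, Lin28b and Pou3f1 lay highest in Neg in both genotypes, Sall4 and Lin28a covered narrow ranges, and Klf4 and Zfp42 were highest in WT Mid.

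In FoxA2 High cells most of the list stood below FoxA2 Neg cells, in both genotypes. In ΔHx, 6 of the 9 genes were called lower in High than in Neg and 0 higher, where 21.1% of all tested genes were called lower and 21.5% higher. In WT, 7 of 9 were called lower and 0 higher, against 21.8% and 22.6% of all tested genes. The 6 of ΔHx were Pou5f1, Nanog, Utf1, Sall4, Lin28b and Pou3f1, and WT added Zfp42. The median change over the 9 genes was -0.82 in ΔHx and -1.29 in WT, against 0.01 and 0.02 over all tested genes. With libraries scaled to equal totals without Rn45s, the WT count was 4 lower and 1 higher (Klf4), beside 2547 lower and 3931 higher genes in all against 3201 and 3331 as deposited. Groups of 3 libraries did not overlap for 6 of 9 genes in ΔHx, where 54.7% of all tested genes had groups apart, and for 9 of 9 in WT, where the share was also 54.7%. Of those 9, 8 were lower in High and 1, Klf4, was higher. The sizes differed widely, and the genes are therefore described by their roles below.

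Pou5f1 encodes OCT4, the POU-domain factor without which no pluripotent cells form. It lies on chromosome 17, positions 35506018 to 35510772, plus strand (mm10, GENCODE). Its values were 804, 719 and 846 in ΔHx High and 831, 826 and 739 in WT High. They were 1347, 1091 and 1189 in ΔHx Mid and 1188, 1432 and 1173 in WT Mid. In Neg they reached 2325, 2422 and 2116 in ΔHx and 2376, 2067 and 2308 in WT. The order High, Mid, Neg held with no overlap between gates in either genotype, while the 2 genotypes overlapped within every gate. High was 2.90-fold lower than Neg in ΔHx (log2 change -1.53, SE 0.11, limma adjusted p = 1.61e-09) and 2.82-fold lower in WT (log2 change -1.49, adjusted p = 1.83e-09). Mid lay 1.90-fold below Neg in ΔHx (log2 change -0.92, adjusted p = 2.71e-06) and 1.78-fold in WT (log2 change -0.84, adjusted p = 7.83e-06). High also lay below Mid, with log2 changes of -0.61 in ΔHx (adjusted p = 2.94e-04) and -0.66 in WT (adjusted p = 1.52e-04). The transcript stayed abundant in every gate: even the lowest library had 693 reads. Its spread within groups was small, with an SD of 0.13 on the log2 scale pooled over the groups, against a median of 0.28 over all tested genes.

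All 3 gates stood apart in both genotypes for Pou5f1 and for Utf1. The Utf1 window is not printed, because its RefSeq start lay 67 bases from the GENCODE start. The promoter of Pou5f1 is shown. The window of 300 bases around the RefSeq start (GRCm38.p6, chr17:35505782-35506081, plus strand, 250 before and 50 after the start) carries in capitals a GC box GGGCGG, whose first base lies 45 bases before the start, and the nuclear receptor half-site AGGTCA, 33 before.
Pou5f1: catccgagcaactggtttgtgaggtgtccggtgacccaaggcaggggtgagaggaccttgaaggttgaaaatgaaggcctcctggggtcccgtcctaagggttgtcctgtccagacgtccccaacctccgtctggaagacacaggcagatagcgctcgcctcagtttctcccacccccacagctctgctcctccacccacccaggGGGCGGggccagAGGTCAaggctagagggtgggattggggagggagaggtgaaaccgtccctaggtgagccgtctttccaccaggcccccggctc
Searched on both strands, GGGCGG was present in 35.7% and AGGTCA in 16.3% of the 32851 RefSeq promoter windows of this length. A match is a description of these letters and no evidence of binding.

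Nanog encodes a homeobox factor of the pluripotency network that in the gastrulating embryo is found in the posterior epiblast. It lies on chromosome 6, positions 122707489 to 122714633, plus strand. Its values were 142, 112 and 164 in ΔHx High and 97.1, 130 and 124 in WT High. In Mid they were 153, 89.7 and 156 in ΔHx and 125, 204 and 146 in WT. In Neg they were 221, 222 and 294 in ΔHx and 203, 202 and 159 in WT. High lay wholly below Neg in both genotypes, High and Mid overlapped in both, and Mid overlapped Neg only in WT. Nanog fell by 0.82 on the log2 scale in ΔHx High against ΔHx Neg (SE 0.25, limma adjusted p = 0.0115), and the same comparison in WT gave -0.68 (adjusted p = 0.0310). In Mid against Neg it was called in ΔHx (log2 change -0.91, adjusted p = 0.00763) and not in WT (-0.27, adjusted p = 0.437). That difference between the genotypes did not itself pass the test (-0.64, SE 0.35, adjusted p = 0.999). These calls leaned on single libraries. The WT High call ended without WT High replicate 1 (-0.55, adjusted p = 0.123), WT Neg replicate 1 (-0.62, 0.0911) or WT Neg replicate 2 (-0.62, 0.0924). The ΔHx High call ended without ΔHx High replicate 2 (-0.67, adjusted p = 0.0603) or ΔHx Neg replicate 3 (-0.68, 0.0628), and the ΔHx Mid call without ΔHx Mid replicate 2 (-0.65, adjusted p = 0.0546). The WT High call also ended with equal totals without Rn45s (-0.57, adjusted p = 0.0720), and quantile normalisation gave -1.04.

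The Nanog promoter is shown because it was the only gene of the RefSeq table whose windows held an octamer beside a SOX site, the composite letters that OCT4 and SOX2 are known to bind together (RefSeq, GRCm38.p6, chr6:122707239-122707538, plus strand). The capitals mark that composite, which reads on the opposite strand and starts 76 bases before the start of transcription.
Nanog: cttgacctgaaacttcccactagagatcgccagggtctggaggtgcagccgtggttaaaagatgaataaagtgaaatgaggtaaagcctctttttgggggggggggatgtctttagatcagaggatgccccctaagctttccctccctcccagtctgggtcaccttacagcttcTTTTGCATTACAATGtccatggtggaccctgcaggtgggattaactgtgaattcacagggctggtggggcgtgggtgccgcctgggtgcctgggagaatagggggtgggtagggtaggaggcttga
The letters searched on both strands were ATGCAAAN for the octamer and CATTGT for the SOX site, and for the composite CATTGT, any 1 base and then ATGCAAAN, so that each composite also counts as both parts. Of the 32851 windows, 2 held the composite (0.00609%), and both belonged to alternative starts of Nanog. The octamer was in 4.61% and the SOX site in 12.6% of windows.

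Utf1 encodes a chromatin-bound factor of the epiblast and of embryonic stem cells and is a known target of OCT4 and SOX2. It lies on chromosome 7, positions 139943789 to 139945112, plus strand. It had 48.2, 87.8 and 68.4 in ΔHx High and 52.7, 167 and 87.7 in WT High. In Mid it had 234, 151 and 468 in ΔHx and 242, 293 and 213 in WT. In Neg the values were 847, 1115 and 1433 in ΔHx and 640, 1322 and 936 in WT. The 3 gates did not overlap in either genotype, although replicates of a group differed by up to about 3-fold, with ΔHx Mid replicate 3 highest in its group. Utf1 was 16.5-fold lower in ΔHx High than in ΔHx Neg (log2 change -4.04, SE 0.39, 95% interval -4.86 to -3.22, limma adjusted p = 1.29e-07). In WT it was 9.96-fold lower (log2 change -3.32, interval -4.14 to -2.50, adjusted p = 1.34e-06). Mid against Neg gave -2.11 in ΔHx (adjusted p = 4.16e-04) and -1.90 in WT (adjusted p = 0.00105). High against Mid gave -1.93 in ΔHx (adjusted p = 0.00117) and -1.42 in WT (adjusted p = 0.0116). The WT call between High and Mid ended without WT High replicate 1 (-1.02, adjusted p = 0.0834).

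Sall4 encodes a zinc finger factor that binds with OCT4 in stem cells and also acts in early endoderm and limb. It lies on chromosome 2, positions 168748332 to 168767943, minus strand. Its values were 6812, 6491 and 6883 in ΔHx High and 6064, 6979 and 6638 in WT High. They were 7070, 6845 and 7325 in ΔHx Mid and 7720, 6941 and 7421 in WT Mid. In Neg they were 8559, 8619 and 8021 in ΔHx and 8973, 7322 and 7961 in WT. All 18 values lay within 1.48-fold of each other, and High still lay wholly below Neg in both genotypes. Sall4 was 1.25-fold lower in ΔHx High than in ΔHx Neg (log2 change -0.32, SE 0.08, limma adjusted p = 0.00308) and 1.23-fold lower in WT (-0.30, adjusted p = 0.00480). Mid against Neg was called in ΔHx (-0.25, adjusted p = 0.0220) and not in WT (-0.13, adjusted p = 0.221). Changes of this size depended on how libraries were scaled: under quantile normalisation, which moved the median of all genes to -0.09 in WT, the WT High value turned to 0.00 (adjusted p = 0.978), and High and Mid in ΔHx came to -0.00 (adjusted p = 0.995) and -0.04 (adjusted p = 0.692). The High calls of both genotypes were kept in 17 of 19 alternatives, and the WT one also ended with equal totals without Rn45s. The ΔHx Mid call also ended without ΔHx Mid replicate 2 (-0.22, adjusted p = 0.0779), ΔHx Neg replicate 1 (-0.23, 0.0722) or ΔHx Neg replicate 2 (-0.23, 0.0744). Its pooled SD of 0.09 was lower than that of all but 3.00% of tested genes.

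The LIN28 pair differed from each other. Lin28a (chromosome 4, 134003330 to 134018841, minus strand) acts mainly in the cytoplasm, where it recruits the uridylating enzymes TUT4 and TUT7 to the let-7 precursor, and Lin28b (chromosome 10, 45376620 to 45486395, minus strand) encodes its paralogue. Lin28a had 6468, 5875 and 5283 in ΔHx High and 5021, 5636 and 6001 in WT High. In Mid it had 6304, 5624 and 5501 in ΔHx and 4283, 5745 and 6616 in WT. In Neg it had 7048, 6428 and 6743 in ΔHx and 6866, 6114 and 6622 in WT. No gate comparison of Lin28a passed the test, and its largest log2 changes were -0.22 in ΔHx and -0.26 in WT, both Mid against Neg (limma adjusted p = 0.179 and 0.111). Without WT Mid replicate 3 the WT value was -0.40 (adjusted p = 0.0124). Lin28b had 837, 720 and 929 in ΔHx High and 641, 600 and 694 in WT High. In Mid it had 989, 633 and 585 in ΔHx and 575, 631 and 912 in WT. In Neg it had 1769, 1809 and 2191 in ΔHx and 2052, 1756 and 1764 in WT. Every Neg library was thus above every High and Mid library, by a wide gap, while High and Mid overlapped. Lin28b was 2.32-fold lower in ΔHx High (log2 change -1.21, SE 0.18, adjusted p = 2.12e-05) and 2.87-fold lower in WT High (-1.52, adjusted p = 1.25e-06) than in Neg of the same genotype. Mid against Neg gave -1.42 in ΔHx (adjusted p = 7.53e-06) and -1.42 in WT (adjusted p = 6.81e-06), and these 4 calls held in all 19 alternatives.

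Pou3f1 encodes OCT6, a POU factor of the primed epiblast and of the early neural plate. It lies on chromosome 4, positions 124656807 to 124660655, plus strand. It had 1.75, 8.15 and 0.825 in ΔHx High and 11.99, 3.64 and 12.41 in WT High, close to the limit of detection at 1 to 14 reads per library. In Mid it had 19.5, 26.3 and 99.2 in ΔHx and 30.1, 30.6 and 30.5 in WT. In Neg it had 58.0, 103 and 204 in ΔHx and 134, 162 and 139 in WT. The WT gates did not overlap, and in ΔHx only Mid and Neg did, through ΔHx Mid replicate 3. This was the widest range of the 9 genes, 248-fold from the lowest to the highest library. The log2 change in High against Neg was -4.91 in ΔHx (SE 0.63, limma adjusted p = 4.49e-06) and -3.97 in WT (adjusted p = 4.79e-05). With so few reads the fitted size depended on the setting, ranging from -5.59 to -3.81 in ΔHx and from -4.50 to -3.45 in WT over the alternatives. Mid against Neg was called in WT (-2.22, adjusted p = 0.0112) and not in ΔHx (-1.49, adjusted p = 0.0758), where it was called without ΔHx Mid replicate 3 (-2.19, adjusted p = 0.0161) or ΔHx Neg replicate 1 (-1.93, adjusted p = 0.0488). High against Mid was called in ΔHx (-3.42, adjusted p = 5.30e-04) and missed the threshold in WT (-1.75, adjusted p = 0.0504), where 6 alternatives called it, among them DESeq2 (-1.71, adjusted p = 0.0316).

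**Figure D2:**
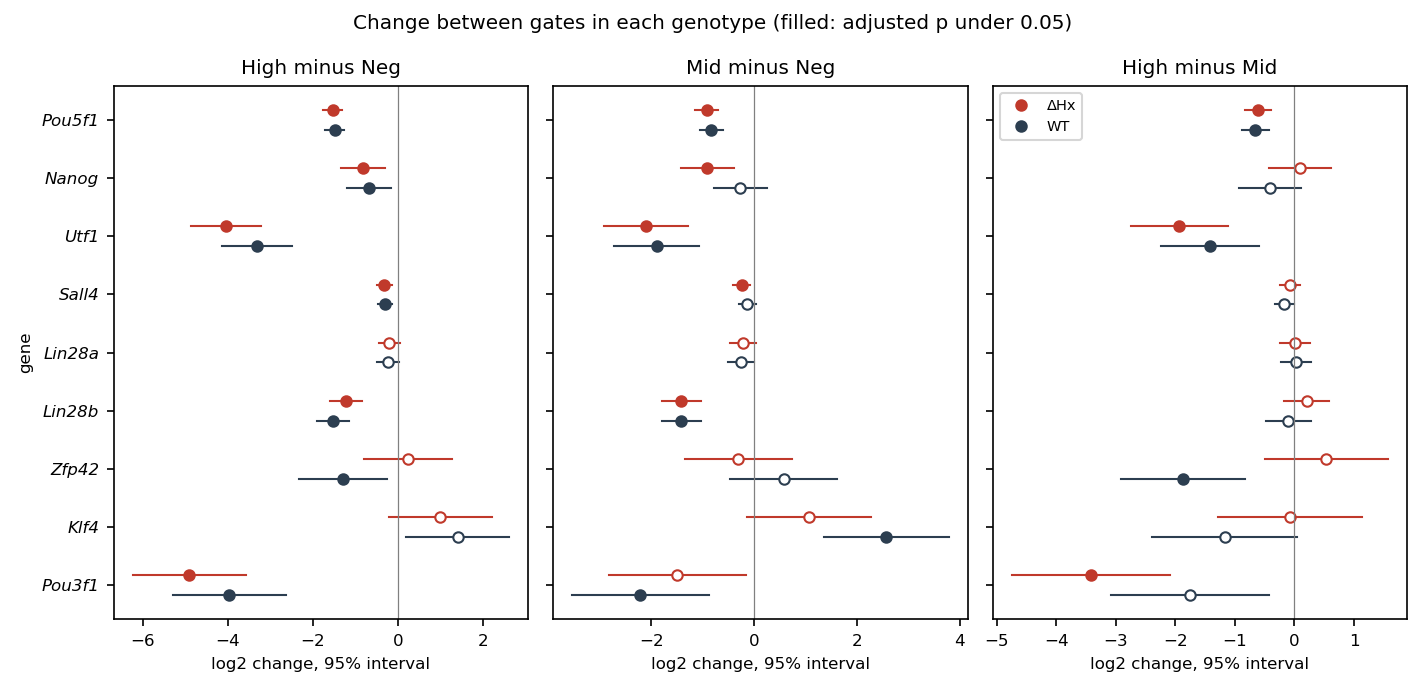
Log2 change with its 95% interval for each gene in High minus Neg, Mid minus Neg and High minus Mid (a different range in each panel), with ΔHx in red above WT in dark blue; filled points had an adjusted p under 0.05 in limma. Pou5f1 and Utf1 are filled and left of 0 in every panel, Lin28a is open in every panel, and Klf4 lies right of 0 against Neg, filled only for WT Mid (2.57).

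Klf4 and Zfp42, the naive-state genes among the 9, did not rise from High through Mid to Neg in either genotype. Klf4 (chromosome 4, 55527143 to 55532466, minus strand) encodes a Krüppel-like zinc finger factor used in reprogramming and also made in many epithelia. It had 53.5, 63.4 and 31.3 in ΔHx High and 91.1, 71.0 and 34.6 in WT High. In Mid it had 34.4, 34.1 and 105 in ΔHx and 334, 86.0 and 91.5 in WT. In Neg it had 11.2, 27.1 and 41.3 in ΔHx and 34.5, 16.2 and 19.9 in WT. The gates overlapped in ΔHx, whereas every WT High and WT Mid library lay above every WT Neg library, the closest by a small margin. Klf4 was called higher in WT Mid than in WT Neg, 5.95-fold (log2 change 2.57, SE 0.58, limma adjusted p = 0.00210), and without WT Mid replicate 1 the change was 1.94 (adjusted p = 0.0174). It was the only one of the 9 genes called higher in any comparison. High against Neg gave 0.99 in ΔHx (adjusted p = 0.181) and 1.40 in WT (adjusted p = 0.0567), and the WT value was called by DESeq2 (1.48, adjusted p = 0.0307), without WT High replicate 3 (1.80, adjusted p = 0.0270) or without WT Neg replicate 1 (1.70, adjusted p = 0.0447).

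Zfp42 (chromosome 8, 43295063 to 43306980, minus strand) encodes REX1, a zinc finger protein whose loss marks the exit from the naive state and which is also made in extra-embryonic ectoderm. It was scarce, with 7 to 75 reads per library. Its values were 19.3, 29.9 and 42.9 in ΔHx High and 8.39, 30.9 and 16.8 in WT High. In Mid they were 13.03, 18.53 and 31.93 in ΔHx and 103, 60.2 and 40.1 in WT. In Neg they were 25.7, 16.8 and 35.1 in ΔHx and 35.7, 56.8 and 36.2 in WT. The ΔHx gates overlapped throughout, and in WT only High lay apart from the other gates. Zfp42 was lower in WT High than in WT Mid (log2 change -1.87, SE 0.50, limma adjusted p = 0.00881), a call that ended without WT High replicate 1 (-1.42, adjusted p = 0.0619) or WT Mid replicate 1 (-1.52, adjusted p = 0.0526). WT High against Neg gave -1.29 (adjusted p = 0.0405), a call kept in 8 of 19 alternatives. It ended with edgeR (adjusted p = 0.0670), with DESeq2 (adjusted p = 0.0514), and without WT High replicate 1 (-0.85, adjusted p = 0.212), WT High replicate 3 (-1.31, 0.0712) or any single WT Neg library (-1.41, -1.08 and -1.40, adjusted p = 0.0574, 0.143 and 0.0623). In ΔHx the change in High against Neg was 0.23 (adjusted p = 0.742), and in High against Mid it was 0.54 (adjusted p = 0.462).

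The Zfp42 promoter is shown as the only other window of these genes with an octamer, in capitals, on the opposite strand with its first base 186 before the start (RefSeq, GRCm38.p6, chr8:43306960-43307259, minus strand, printed 5′ to 3′ on the gene's strand).
Zfp42: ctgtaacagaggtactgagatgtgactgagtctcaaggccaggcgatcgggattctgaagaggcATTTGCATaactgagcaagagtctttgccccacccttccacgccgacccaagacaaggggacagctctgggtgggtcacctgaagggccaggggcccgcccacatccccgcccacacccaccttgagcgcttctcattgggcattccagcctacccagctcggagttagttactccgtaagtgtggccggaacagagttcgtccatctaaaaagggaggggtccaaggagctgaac
RefSeq windows were matched for 7 of the 9 genes, with 9 windows in all. The forkhead letters TNTTTAC, found in 12.4% of all windows on either strand, were in none of the 9 windows, which says only that these letters are not there.

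Mid cells were intermediate for part of the list. Against Neg, 5 of 9 genes were called lower and 0 higher in ΔHx (Pou5f1, Nanog, Utf1, Sall4 and Lin28b), where 16.5% and 17.9% of all tested genes were. Without ΔHx Mid replicate 2 that count was 3. In WT, 4 were called lower (Pou5f1, Utf1, Lin28b and Pou3f1) and 1 higher (Klf4), against 15.4% and 17.4% of all tested genes, or 2874 lower and 1890 higher genes with libraries scaled to equal totals against 2267 and 2567 as deposited. High against Mid left 3 genes lower and 0 higher in ΔHx (Pou5f1, Utf1 and Pou3f1), where 12.3% and 13.3% of tested genes were called. In WT it also left 3 lower and 0 higher (Pou5f1, Utf1 and Zfp42), where 12.4% and 12.1% were called, and the WT count was 1 without WT High replicate 1 and 2 without WT Mid replicate 1. Equal totals turned these splits to 1142 lower and 2177 higher genes in ΔHx (1810 and 1959 as deposited) and to 983 lower and 1870 higher in WT (1819 and 1774 as deposited), with 3 members lower in each genotype as before. In WT, totals taken without Rn45s gave 1389 lower and 2163 higher genes. High and Mid were compared with the same Neg libraries, so the changes of a gene in both are not independent.

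Levels per kilobase of exon allow the genes to be set against each other, on GENCODE exon lengths of 1227 to 9065 bases. In ΔHx Neg, Lin28a averaged 1687 ± 77.5 and Sall4 1517 ± 59.5 normalised reads per kilobase, followed by Pou5f1 at 1018 ± 69.6 and Utf1 at 922 ± 239 (SD, n = 3). In WT Neg the same genes averaged 1635 ± 95.9, 1460 ± 150, 1001 ± 72.1 and 787 ± 279. Lin28a and Sall4 were thus close together, and Pou5f1 and Utf1 did not differ beyond their spread. Lin28b (212 ± 25.7 in ΔHx Neg, 205 ± 18.6 in WT Neg) and Nanog (110 ± 18.7 and 83.8 ± 11.3) came next. Pou3f1 had 31.6 ± 19.5 in ΔHx Neg and 37.8 ± 3.86 in WT Neg, and Zfp42 and Klf4 averaged under Pou3f1 in both. In High the order differed: Pou3f1 was lowest, at 0.929 ± 1.04 in ΔHx and 2.43 ± 1.28 in WT, and Utf1 averaged 55.6 ± 16.1 in ΔHx High and 83.7 ± 47.9 in WT High, beside Nanog at 62.2 ± 11.6 and 52.2 ± 7.85 and far under Pou5f1 (351 ± 28.8 and 355 ± 22.9).

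Between the genotypes, none of the 9 genes was called in any gate. limma called 0 of 9 in High, 0 of 9 in Mid and 0 of 9 in Neg, where it called 0.122%, 0.401% and 0.245% of all tested genes. Averaged over the gates, with all libraries taken as independent, it again called 0 of 9, against 0.843%. edgeR and DESeq2 also called 0 of 9 in each. At an unadjusted p under 0.05 there was 1 gene in High (Pou3f1), 2 in Mid (Zfp42 and Klf4) and 0 in Neg and in the average. Equal totals moved the split of all called genes in High to 10 higher and 6 lower, against 9 and 9 as deposited. For the abundant genes the 95% intervals were narrow. For Pou5f1 the fold of ΔHx over WT was 0.99 in High (interval 0.85 to 1.15), 0.96 in Mid (0.82 to 1.12) and 1.02 in Neg (0.87 to 1.19). For Sall4 the interval was 0.91 to 1.15 in High, 0.86 to 1.08 in Mid and 0.93 to 1.17 in Neg. For Utf1 it was 0.41 to 1.28 in High, 0.58 to 1.82 in Mid and 0.68 to 2.11 in Neg.

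**Figure D3:**
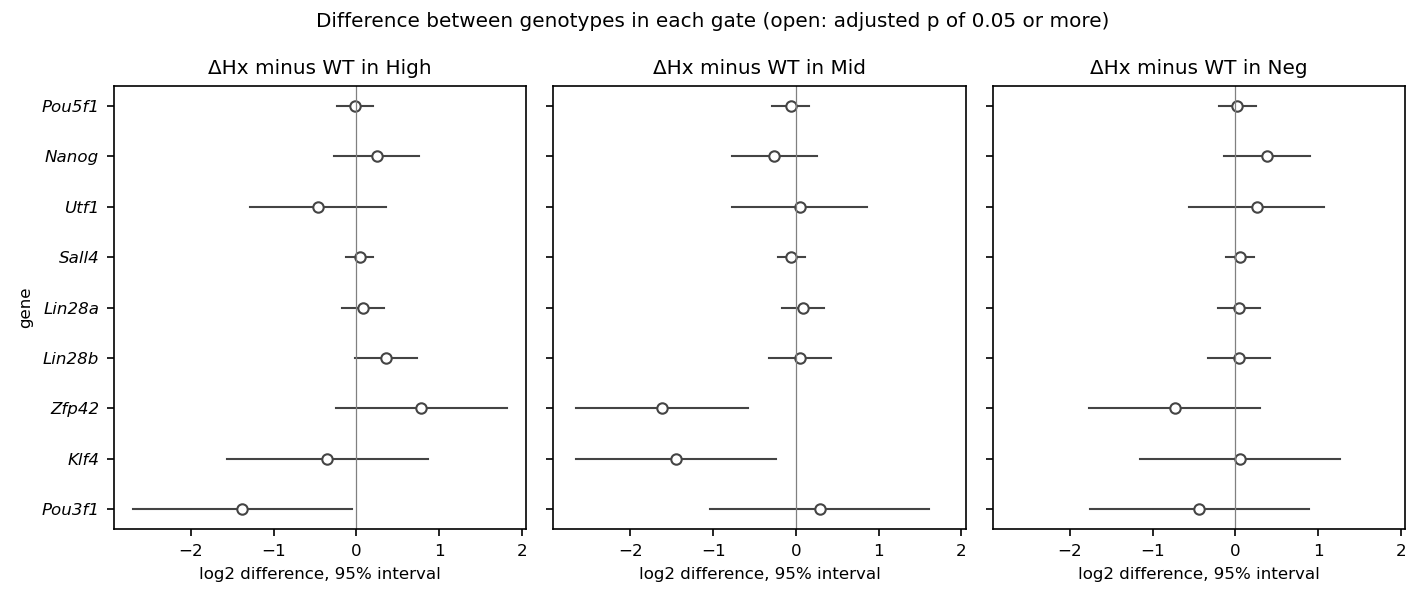
Log2 difference ΔHx minus WT with its 95% interval for each gene in the High, Mid and Neg gates, all on 1 axis; open points had an adjusted p of 0.05 or more in limma. All 27 points are open, and Zfp42 (-1.62) and Klf4 (-1.45) in Mid are the farthest from 0.

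Single gates held genes whose 2 genotypes did not overlap. In High these were 1 of 9 genes, Lin28b, higher in ΔHx (829 ± 105 in ΔHx, 645 ± 47.2 in WT, SD, n = 3; log2 difference 0.36, SE 0.18, limma adjusted p = 0.646), where 10.9% of all tested genes had genotypes apart. In Mid it was 1 of 9, Zfp42, lower in ΔHx (21.2 ± 9.72 in ΔHx, 67.7 ± 32.0 in WT; -1.62, SE 0.50, adjusted p = 0.244), where the share was also 10.9%. In Neg there were 2 of 9 against 12.7% of tested genes: Nanog, higher in ΔHx (246 ± 42.0 in ΔHx, 188 ± 25.4 in WT; 0.38, adjusted p = 1), and Zfp42, lower in ΔHx (25.9 ± 9.15 in ΔHx, 42.91 ± 12.015 in WT; -0.73, adjusted p = 1). With 9 genes, counts of 1 and 2 are near these shares. For Zfp42 in Mid, array weights gave a call (-1.67, adjusted p = 0.0427), and the other 18 alternatives gave adjusted p-values up to 0.679.

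Whether the genotype difference itself changed between gates was tested as well. limma, edgeR and DESeq2 each called 0 of 9 genes for High minus Neg, Mid minus Neg and High minus Mid, where limma called 0%, 0.00680% and 0.0136% of all tested genes. At an unadjusted p under 0.05 there was 1 of 9 genes in High minus Neg, 0 in Mid minus Neg and 1 in High minus Mid, and both were Zfp42. For Zfp42 the High minus Mid value was 2.41 (SE 0.70, adjusted p = 0.486), or 2.06 without WT Mid replicate 1 (adjusted p = 0.585), and its genotype difference was 0.79 in High and -1.62 in Mid.

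The library with the highest Zfp42 and Klf4 values, WT Mid replicate 1, was also the highest in parietal endoderm genes. That list includes genes of the thick basement membrane laid down by that extra-embryonic tissue. The summed value of the 10 genes of that list was 17925, 17266 and 23904 in ΔHx Mid and 235003, 40269 and 63027 in WT Mid, so the genotypes did not overlap. Of the 10, 8 were called lower in ΔHx Mid and 0 higher, with a median of -2.11 against 0.00 over all tested genes; none was without reads in either group. Without WT Mid replicate 1, 6 were called lower and 0 higher, with a median of -1.36. Lama1 had 1141, 1010 and 1432 in ΔHx Mid and 30072, 4065 and 7011 in WT Mid. The other WT Mid libraries did not keep the order for Zfp42, which was 60.2 in replicate 2 and 40.1 in replicate 3, where the summed list was lower in replicate 2. WT Mid replicate 1 was also the highest for Klf5 (658), for Fbxo15 (286) and for Pdpn (3767), which were picked out after their values were seen. Without it the difference between ΔHx and WT in Mid was -1.27 for Zfp42 (adjusted p = 0.617) and -0.82 for Klf4 (adjusted p = 0.762), against -1.62 and -1.45 with it (adjusted p = 0.244 and 0.486). The part of parietal endoderm RNA in these values was not tested. Zfp42 and Klf4 are measured here in all cells of the gate together.

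**Figure D4:**
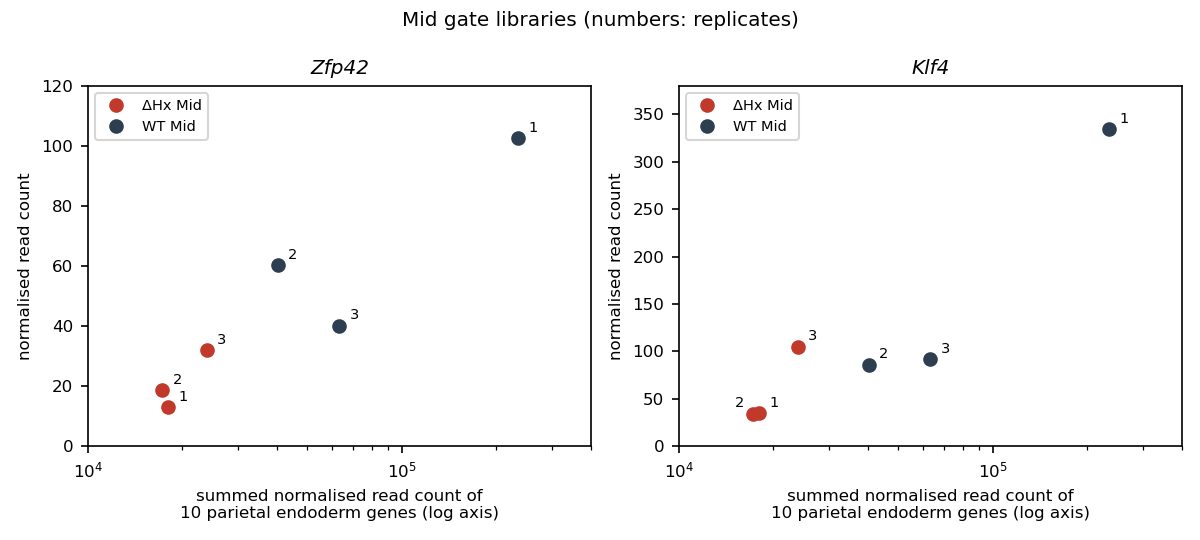
Normalised read count of Zfp42 and Klf4 (linear axis from 0) against the summed normalised read count of 10 parietal endoderm genes (log axis) in the 6 Mid libraries, ΔHx in red and WT in dark blue, numbered by replicate. WT Mid replicate 1 is at the upper right of both panels, and the 3 ΔHx libraries lie left of the 3 WT libraries, at summed values of 17266 to 23904.

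RNA of extra-embryonic ectoderm genes was present in all gates, and its sum over the list was highest in Mid. Zfp42 and several naive-state genes are also active in that tissue. The summed value of the 13 genes of that list was 2148 to 2652 in ΔHx High and 1937 to 2650 in WT High. In Mid it was 4091 to 5835 in ΔHx and 3874 to 5026 in WT. In Neg it was 2058 to 2466 in ΔHx and 2072 to 2695 in WT, with no gene of the list without reads. Single genes went both ways between Mid and Neg. Of 12 tested, 3 were called higher and 4 lower in ΔHx Mid, with a median log2 change of -0.06. In WT Mid 4 were called higher and 5 lower, with a median of -0.09. Of all tested genes, 17.9% were called higher and 16.5% lower in ΔHx, and 17.4% and 15.4% in WT. Elf5, a defining factor of that tissue, had 14.5, 40.1 and 47.5 in ΔHx Neg and 41.9, 71.0 and 79.7 in WT Neg, and at most 4.55 in any High library. Esrrb, a naive-state factor that extra-embryonic ectoderm also makes, had 14.5, 52.3 and 51.6 in ΔHx Neg and 46.8, 73.0 and 68.8 in WT Neg, and at most 11.99 in High. Unlike the summed list, Esrrb was called lower in ΔHx Mid than in ΔHx Neg. That call ended without ΔHx Neg replicate 2 (-2.16, limma adjusted p = 0.0734) or ΔHx Neg replicate 3 (-2.17, 0.0729). Elf5 alone does not stand for a list that went both ways, and Esrrb is not on that list. The Zfp42 values of the 6 Neg libraries were 16.8 to 56.8, lower in ΔHx, and the part of this tissue in them was not tested.

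Other genes of the epiblast split into opposite directions between the gates. Of 26 such genes, all tested, 14 were lower and 8 higher in ΔHx High than in ΔHx Neg, with a median of -0.67, and 12 were lower and 8 higher in WT, with a median of -0.48. Of all tested genes, 21.1% were lower and 21.5% higher in ΔHx, and 21.8% and 22.6% in WT, so that the share called higher was nearer to that of all genes than the share called lower. The medians of all tested genes were 0.01 and 0.02. Nodal, the ligand that induces mesendoderm, had 1635, 1633 and 1642 in ΔHx High and 1499, 1312 and 1318 in WT High, against 114, 117 and 152 in ΔHx Neg and 43.1, 84.2 and 66.1 in WT Neg. Its log2 change was 3.68 in ΔHx (SE 0.20, limma adjusted p = 8.98e-11) and 4.44 in WT (adjusted p = 7.40e-12). Opposite to it, Sox2, the HMG-box partner of OCT4, averaged 7.56 in ΔHx High and 95.4 in ΔHx Neg (-3.89, SE 0.63, adjusted p = 5.84e-05), and 7.22 in WT High and 94.9 in WT Neg (-3.70, adjusted p = 9.15e-05). Sox3 (-3.62 in ΔHx, -4.10 in WT) and Fgf4 (-2.79 in ΔHx, -3.79 in WT) were called lower as well, as was Dppa4, which was close to 0 in High (mean 1.18 in ΔHx High, 0.607 in WT High, 17.5 in ΔHx Neg and 34.1 in WT Neg), although its ΔHx call ended without ΔHx High replicate 3 (adjusted p = 0.0577) or ΔHx Neg replicate 3 (adjusted p = 0.0698). Dnmt3b, a DNA methyltransferase of the epiblast, fell by 1.95 in ΔHx High (adjusted p = 4.07e-11) and by 1.82 in WT High (adjusted p = 6.58e-11). Among genes called higher were the epiblast genes Otx2 (1.18 in ΔHx, 1.41 in WT), Fgf5 (1.65 in ΔHx, 2.42 in WT), Tdgf1 (1.33 in ΔHx, 1.89 in WT) and Cdh1 (1.68 in ΔHx, 1.59 in WT), which with Dnmt3b were named after their values were seen.

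**Figure D5:**
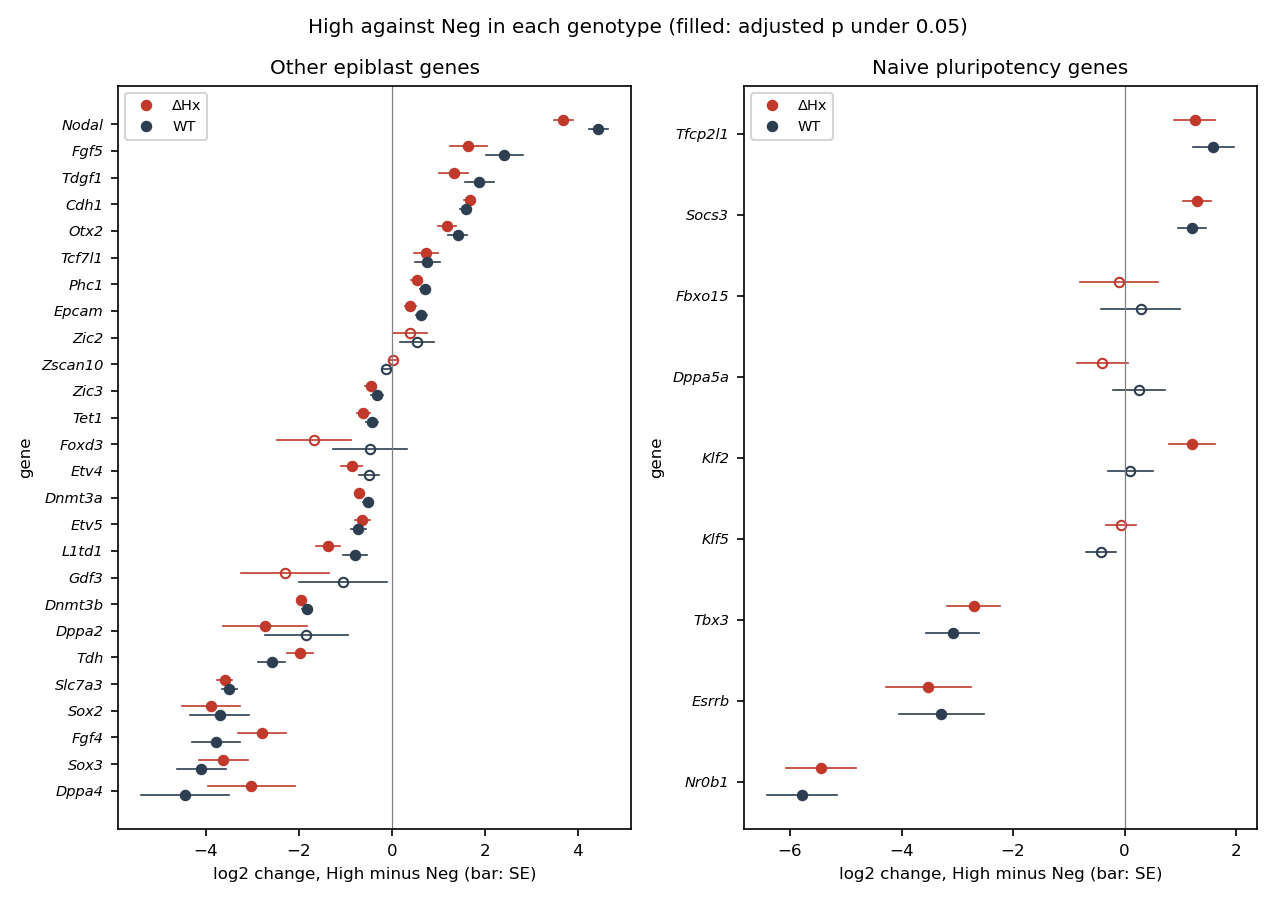
Log2 change High minus Neg with its SE for 26 other epiblast genes and 9 naive pluripotency genes, ΔHx in red above WT in dark blue, ordered by the WT value; filled points had an adjusted p under 0.05 in limma. Nodal (3.68 in ΔHx, 4.44 in WT) is farthest to the right, and Sox2 (-3.89 in ΔHx, -3.70 in WT) is among the genes on the left.

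Of 12 other naive pluripotency genes 9 were tested. In High against Neg 3 were called lower and 3 higher in ΔHx, and 3 lower and 2 higher in WT, with medians of -0.10 in ΔHx and 0.10 in WT, counts that are near the 21.1% to 22.6% of all tested genes called in either direction. The lower ones were the same 3 genes in both genotypes. Nr0b1, an orphan nuclear receptor of stem cells, averaged 0.302 in ΔHx High and 53.3 in ΔHx Neg, and 0.607 in WT High and 77.1 in WT Neg. Esrrb (-3.52 in ΔHx, -3.29 in WT) and Tbx3 (-2.70 in ΔHx, -3.08 in WT) were the others. Tfcp2l1, a Grainyhead-like factor, was called higher in High (1.26 in ΔHx, 1.59 in WT) and in Mid (3.88 in ΔHx, 3.33 in WT), where it had 752, 736 and 669 in ΔHx and 336, 664 and 638 in WT. Without WT Mid replicate 1 the WT Mid change of Tfcp2l1 was 3.65 (adjusted p = 9.50e-07), and its ΔHx High call ended without ΔHx High replicate 2 (0.97, adjusted p = 0.0614). Socs3, a feedback inhibitor of LIF and JAK-STAT signalling, was the 1 gene of this list called between genotypes, lower in ΔHx Mid at 69.8, 70.2 and 69.6, against 262, 110 and 187 in WT Mid (log2 difference -1.32, SE 0.25, limma adjusted p = 0.0191). The groups did not overlap, but the Socs3 call ended without WT Mid replicate 1 (-1.03, adjusted p = 0.104), WT Mid replicate 3 (-1.27, adjusted p = 0.0662) or ΔHx Mid replicate 1, 2 or 3 (-1.32, -1.32 and -1.31, adjusted p = 0.0731, 0.0857 and 0.0579).

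Genes around LIN28 and let-7 were called about as often as all tested genes. Of 14 genes, all tested, 4 were called lower and 3 higher in High than in Neg in ΔHx, and likewise 4 and 3 in WT, with medians of -0.17 in ΔHx and -0.08 in WT, beside 21.1% to 22.6% of all tested genes in either direction. Mycn, a growth regulator and known let-7 target, had the largest of these changes, at 330, 238 and 337 in ΔHx High and 279, 244 and 229 in WT High, against 3582, 3181 and 3103 in ΔHx Neg and 3141, 2858 and 3015 in WT Neg (-3.46 in ΔHx and -3.58 in WT, SE 0.13, limma adjusted p = 1.44e-12 and 5.83e-13). Igf2bp1, an RNA-binding let-7 target, gave -0.54 in ΔHx (adjusted p = 5.71e-04) and -0.60 in WT (adjusted p = 2.31e-04). Arid3b gave 0.91 in ΔHx (adjusted p = 2.58e-07) and 0.83 in WT (adjusted p = 6.42e-07), and Dis3l2, the exonuclease that degrades uridylated let-7 precursors, gave 0.77 in WT (adjusted p = 7.94e-04). In ΔHx it gave 0.47 (adjusted p = 0.0273), which was lost when ΔHx Neg replicate 3 (0.35, 0.135), ΔHx High replicate 2 (0.40, 0.0972) or ΔHx High replicate 1 (0.41, 0.0919) was left out. Mature microRNAs were not measured in these libraries.

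Of 12 other POU genes 5 were tested. In High against Neg 1 was called higher and 1 lower in ΔHx, and 1 higher and 0 lower in WT. Of all tested genes, 21.5% were called higher and 21.1% lower in ΔHx, and 22.6% and 21.8% in WT. The gene called higher was Pou6f1, at 181, 195 and 262 in ΔHx High and 380, 299 and 173 in WT High, against 7.81, 9.33 and 7.23 in ΔHx Neg and 4.93, 1.01 and 4.53 in WT Neg (4.54 in ΔHx and 6.07 in WT, limma adjusted p = 1.90e-07 and 3.37e-09). Sall1 rose by 1.32 in ΔHx High (adjusted p = 1.93e-06) and by 1.35 in WT High (adjusted p = 1.28e-06), while Sall2 fell by 0.43 in ΔHx (adjusted p = 0.00502) and by 0.60 in WT (adjusted p = 3.15e-04). Of 16 other KLF genes 15 were tested, with 5 lower and 3 higher in ΔHx High than in ΔHx Neg, where 21.1% and 21.5% of all tested genes were called. In WT 3 were lower and 3 higher, where 21.8% and 22.6% of all tested genes were called. Klf13 fell by 1.24 in ΔHx (adjusted p = 6.32e-07) and by 1.08 in WT (adjusted p = 3.19e-06).

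The tested genes nearest to each of the 9 were found by the root-mean-square difference of log2(value + 1) over the 18 libraries, each gene centred on its own mean. For Pou5f1 they were Ccne1 (0.14), Ddx21 (0.15) and Rrm2 (0.18), genes of cell cycle entry, ribosome synthesis and nucleotide synthesis. Utf1 was nearest to Slc7a3 (0.43), a cationic amino acid transporter, which had 90.3, 96.9 and 85.8 in ΔHx High and 88.7, 104 and 117 in WT High, against 1073, 1087 and 1177 in ΔHx Neg and 914, 1444 and 1199 in WT Neg. Lin28b was nearest to Fndc3c1 (0.19) and Prps1 (0.19), Nanog to Dusp12 (0.22) and Myc (0.23), and Pou3f1 to Sct (0.72), Pcdh11x (0.88) and Utf1 (0.89). Sall4 was nearest to Ireb2 (0.07) and Lin28a to Fh1 (0.09), in both cases genes of narrow range. Klf4 was nearest to Adamts9 (0.56), Lrrtm2 (0.57) and Pdpn (0.59), and Zfp42 was nearest to Gata6 (0.56), Adamtsl2 (0.57) and Slc6a15 (0.58). A larger value means a looser likeness, so the pairs of Zfp42, Klf4 and Pou3f1 were far less alike than those of Pou5f1. Among the 9 themselves, the difference from Pou5f1 was smallest for Lin28b (0.38) and Nanog (0.41).

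The counts could not separate strands. Transcripts annotated on the opposite strand overlap exons of Pou5f1 (Gm19553), Sall4 (Gm14261), Lin28a (Gm13061) and Pou3f1 (Gm2164), and reads from them could be counted with these genes. Nanog and Zfp42 have annotated pseudogenes without a row of their own, so their values are less certain where reads are shared with these copies.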

How the data were processed

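RNA was sequenced in 18 SMART-Seq2 libraries, made from RNA equal to that of 1000 cells and read from 1 end for 75 bases, per the labels' protocols. The authors' deposited table holds a signal per gene, which the values show to be read counts over a size factor of each library. The submitters' processing notes name build mm10 with HTSeq 0.6.1, STAR 2.5.2a, DESeq2 and DESeq, and give no annotation. All 440964 gene values were whole reads within 1e-06 (100% whole), so reads could be recovered for count tests. HTSeq's 5 counter lines were left out; 37.7% to 41.3% of what was counted was not unique and 7.17% to 12.1% had no feature. Rn45s, a ribosomal precursor, held 23.7% to 44.0% of reads in genes. Counts of replicates varied beyond counting error in every group, at 6.18 to 61.9 chi-square units per degree of freedom.

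Genes reaching a value of 10 in 3 or more libraries were tested with limma 3.58.1 in R 4.3.3 on log2(value + 1): 6 group means over 18 libraries, a trend in the variance, two-sided tests, Benjamini-Hochberg adjustment within each of 13 contrasts, called at adjusted p under 0.05. Alternatives were pseudocounts of 0.5 and 5, no filter, a filter at 50, quantile normalisation, equal totals with and without Rn45s, only the compared groups, a replicate block, array weights, robust variances, edgeR 4.0.16 and DESeq2 1.42.0 on recovered reads, and leaving out each library. The limma steps were tested on simulated counts for ΔHx against WT in High only, so the gate comparisons were not covered. Positions and exon lengths are from GENCODE vM21 and promoters from RefSeq. The 9 genes and all gene lists were chosen with earlier results of these data known. From each list up to 4 called genes with the largest change and a mean of at least 20 were eligible to be named, with the 3 most alike genes of each of the 9.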

Additional observations from a re-analysis of the deposited data

How the results depend on the processing

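Of the 29 gate calls on the 9 genes, 20 held in all 19 alternatives run for them and 9 ended in at least 1: 3 of Nanog, 3 of Sall4, 2 of Zfp42 and 1 of Utf1. Of 88 results that were not called, 10 were called in at least 1 alternative. Array weights called 5 genes lower in WT High than in WT Mid, where 3 were called, and 1 gene between genotypes in Mid, where 0 were. Leaving out 1 library at a time gave 1 to 3 calls for WT High against Mid and 3 to 6 for ΔHx Mid against Neg. Under quantile normalisation Sall4 in WT High against Neg reversed to 0.0032. The cause of these shifts was not tested. The median of all tested genes moved by over 0.1 under 3 scalings, to -0.16 in WT Mid against Neg, 0.11 in WT High against Mid and 0.12 in ΔHx High against Mid with equal totals, to 0.13 in WT and 0.11 in ΔHx High against Neg without Rn45s, and to -0.09 in WT High against Neg under quantile normalisation. A replicate block, with 1 effect per replicate number shared by both genotypes, left 7 genes called in WT High against Neg. It changed no count of calls on the 9 genes. Over all tested genes it gave 12 higher and 13 lower between genotypes in High, against 9 and 9 without it. A block within each genotype was not fitted. Over all groups, deviations of samples with equal numbers from their group means had a median correlation of 0.02 (5 of 45 pairs over 0.1). Those with different numbers had -0.01 (6 of 90). Within a genotype, every pair with equal numbers correlated positively, and all 5 pairs over 0.1 were of this kind. WT High and WT Mid gave 0.17, 0.097 and 0.29 for replicates 1, 2 and 3. ΔHx High and ΔHx Mid gave 0.091, 0.018 and 0.048. Between genotypes the signs were mixed, at -0.12, 0.0018 and -0.17 for ΔHx Mid and WT Mid. Numbers were not treated as pairs, so the gate tests leave out any such sharing. The genotype average over gates and the differences of the genotype effect leave it out too. If gates of a genotype share embryos, the SE of that average is too small. Over all tested genes, calls between genotypes varied most: in Mid there were 11 higher and 48 lower, but 128 and 139 with array weights, 42 and 137 with DESeq2, 1 and 2 with only the compared groups, and 10 and 27 without WT Mid replicate 1. In High there were 9 and 9, but 48 and 48 with array weights, 37 and 47 with DESeq2 and 1 and 2 with only the compared groups. In Neg there were 20 and 16, but 53 and 38 with array weights and 9 and 14 with edgeR, and on average 62 and 62, but 297 and 273 with array weights and 147 and 155 with DESeq2. Depth limited Pou3f1 in High (1 to 14 reads) and Zfp42 (7 to 75 reads).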
